A study of Mus musculus with 36 samples.

Results

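Mouse glioma cells that shared their dish with macrophages were compared between 24 h and 6 h after the addition of myelin. The libraries were chosen by their titles, as those of tumour cells from co-culture at these times, which gives 3 at 24 h and 3 at 6 h, 6 of the 36 libraries of the series. The tumour cells are a line from a recurrent glioma of a mouse model, named PDG-Ink4a Recurrent in the labels. In that model platelet-derived growth factor B is expressed in Nestin-positive progenitor cells of mice without Ink4a/Arf, so every tumour cell group carries the same driver and the same deletion. The macrophages of the co-culture came from bone marrow, and both cell types were purified by sorting before RNA was made. The series also holds each cell type kept alone (mono-culture) and a 0 h group, labelled as the control. All are cultures, with no host tissue, and the 3 libraries of a group are numbered 001 to 003. Nothing in the labels says that they came from separate cultures, so the p-values measure the spread between these libraries, which may be technical. Neither of the groups compared is without myelin, so time after myelin and time in culture change together.

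Several programmes that a tumour cell can change within a day bear on this interval. Type I and type II interferons act through STAT proteins and interferon regulatory factors, which switch on antiviral proteins, immunity-related GTPases and the proteasome and transporters of antigen presentation. Glioma cells can also take on a mesenchymal-like state, with high CD44 and with genes driven by AP-1, the dimer of FOS and JUN proteins that growth factor and MAP kinase signals raise. NRF2 drives the antioxidant genes, and ribosome production follows growth signals. Myelin is rich in cholesterol and lipids, and cells that take up sterol turn down SREBP-driven synthesis and uptake and turn on LXR-driven export.

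The 6 libraries held 11609831 to 15319104 counts. Library number 001 stood apart in the co-cultured tumour cells: on the first principal component its 3 libraries, at 0 h, 6 h and 24 h, lay between -76.0 and -48.8 and the other 6 between 14.6 and 47.4. A single gene entry, CT010467.1, took 2.127% of the counts of library 001 at 24 h and 0.2667% at 6 h. In the 4 others it took 0.2792% to 0.5357%. What this does to the changes in library 001 was not tested. Macrophage RNA also differed by number. From 50 macrophage marker genes it made up 0.0368% of library 001 at 6 h and 0.0463% at 24 h, against 1.41% to 1.50% in the 4 others. The estimate depends on the markers. From a fixed list of 24 macrophage markers it was 0.0739% at 6 h and 0.0843% at 24 h in library 001. In 002 that list gave 4.79% and 4.61%, and in 003 5.26% and 4.76%. From 20 markers it was 0.0274% and 0.0284% in library 001, while in 002 it was 0.776% at 6 h and 0.444% at 24 h and in 003 0.860% and 0.593%, so with these markers it was lower at 24 h in both. More macrophages and more RNA in each of them cannot be told apart in such libraries. The summed level of the 24 listed macrophage markers was 32.6, 1420 and 1480 CPM (counts scaled to a common library size) at 6 h and 38.6, 1650 and 1750 CPM at 24 h. None of those 24 genes passed the test between the times, 1 of them, Aif1, had no count in either library 001, and all 24 were counted in the other 4 libraries. Transcripts of myelin genes were few: Mbp had 17 to 70 counts in the 6 libraries. Of the glioma markers, Pdgfra, Sox2, Nes, Cspg4, Vcan, Cd44 and Vim were expressed, while Olig1, Ptprz1 and Bcan had 0 counts and Sox10, Gfap and Ncan at most 2. Cdkn2a, which holds Ink4a and Arf, had 23 to 40 counts in the 6 libraries. The labels do not say which exons the deletion takes out, so these counts check no label.

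Between 6 h and 24 h most listed interferon-induced genes rose in the co-cultured glioma cells (13 of 13 GTPases and 28 of 37 other interferon-stimulated genes), and 28 of 34 ribosome biogenesis genes fell. Part of the NRF2 targets (12 of 23), of the mesenchymal-like genes (11 of 29) and of the MAP kinase feedback genes (6 of 21) fell. Of 13603 genes tested with edgeR's quasi-likelihood test, with the library number as a block, 2601 passed at an adjusted p under 0.05, which is 19.1%. They split into 1253 higher at 24 h (9.21%) and 1348 lower (9.91%). Changes of at least 2-fold were found for 402 genes (2.96%), 269 of them higher (1.98%) and 133 lower (0.978%), and the median change of all genes was -0.001 on the log2 scale. Without regard to a test, 1777 genes were higher in all 3 libraries at 24 h than in any at 6 h (13.1%) and 1899 were lower (14%). The number of calls rests on the block: without it 209 genes passed, 112 higher and 97 lower. It was 1515 without library 001 at 24 h and 1483 without library 003 at 24 h. No gene called in the comparison changed direction under any of the alternatives tried. All levels below are CPM after TMM normalisation, in the order of libraries 001, 002 and 003, and all changes are log2 values of 24 h over 6 h with their standard error and an adjusted p from this edgeR fit.

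**Figure D1:**
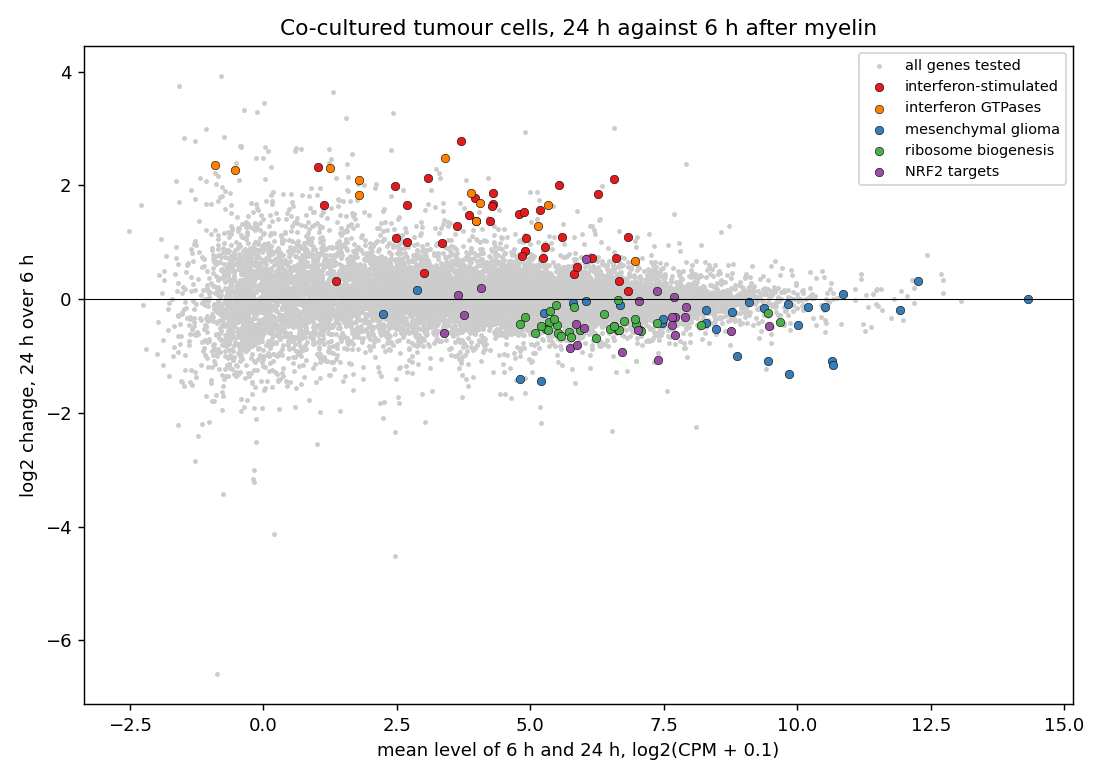
Each point is 1 of the 13603 genes tested in co-cultured tumour cells, with its mean level at 6 h and 24 h as log2(CPM + 0.1) on the horizontal axis and its log2 change of 24 h over 6 h on the vertical axis, and with 5 gene lists in colour. All listed interferon-stimulated genes and interferon-induced GTPases lie above 0 and all listed ribosome biogenesis genes below it.

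Most listed interferon-induced genes rose. All 13 interferon-induced GTPases tested rose, with a median change of 1.83, and 28 of the 37 interferon-stimulated genes rose, with a median of 1.29, against 9.21% of all genes called higher and a median of -0.001. The other 9 did not pass but also had values above 0, from 0.13 (Trim25) to 1.08 (Ifi27l2a). Without the block 9 GTPases and 15 interferon-stimulated genes passed. In libraries 002 and 003 alone 12 and 28 passed. Leaving out 1 library at a time kept between 11 and 13 GTPases and between 19 and 29 interferon-stimulated genes.

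Ifit1, an RNA-binding protein that blocks translation of viral RNA, read 40.2, 24.8 and 34.04 CPM at 6 h and 286, 96.2 and 86.3 CPM at 24 h. The groups did not overlap, and library 001 was highest at 24 h. Its change was 2.11 ± 0.27 (adjusted p = 0.000469). Rsad2, the antiviral enzyme viperin, read 3.15, 3.00 and 2.09 CPM at 6 h and 28.2, 8.33 and 5.41 CPM at 24 h, again without overlap, and changed by 2.12 ± 0.46 (adjusted p = 0.00631). Isg15, a ubiquitin-like protein, went from 20.04, 14.7 and 18.4 CPM to 95.1, 33.9 and 33.9 CPM, a change of 1.57 ± 0.33 (adjusted p = 0.00548).

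Among the regulators of the response, Irf7, which amplifies type I interferon output, read 7.90, 6.44 and 6.36 CPM at 6 h and 40.5, 15.8 and 16.7 CPM at 24 h (1.77 ± 0.30, adjusted p = 0.00181). Irf9, another interferon regulatory factor, went from 27.7, 28.3 and 28.9 CPM to 60.7, 40.98 and 38.5 CPM (0.72 ± 0.16, adjusted p = 0.00746). In both the groups did not overlap. Of the ligand gene Ifnb1 no count was found in the 3 libraries at 6 h, and 2, 0 and 1 counts at 24 h, so a change in it was not detectable at this depth.

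The GTPases guard against intracellular pathogens by disrupting the membranes around them. Iigp1, an immunity-related GTPase, read 4.82, 2.00 and 2.26 CPM at 6 h and 33.01, 11.5 and 9.31 CPM at 24 h, with no overlap, a change of 2.48 ± 0.38 (adjusted p = 0.00102). Gbp3, a guanylate-binding protein, went from 9.89, 6.51 and 6.61 CPM to 44.5, 17.7 and 14.6 CPM (1.68 ± 0.35, adjusted p = 0.00504). Irgm1, a regulator of the other family members, had the smallest change of the 13, from 95.6, 100.4 and 92.7 CPM to 188, 149 and 121 CPM (0.66 ± 0.15, adjusted p = 0.00765). Tgtp1 and Tgtp2, Ifit3 and Ifit3b, and the guanylate-binding proteins are near copies of each other, and Gbp4 overlaps Gbp8 and Gbp9 on the same strand, so the share of each in their reads is uncertain.

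Promoters of many of these genes hold the letters that interferon regulatory factors and STAT complexes are known to bind, and 5 of them are shown to let the repeats be seen. They are from RefSeq on GRCm38.p6, 5′ to 3′ on the gene's strand, and the capitals mark the matches to the interferon-stimulated response element, searched as GAAA, any 2 bases and GAAA again, on either strand, where matches can overlap. The stretch of Ifit1 lies at chr19:34640760-34640838 on the plus strand, Rsad2 at chr12:26456538-26456597 on the minus strand, Cxcl10 at chr5:92349068-92349127 on the minus strand, Gbp3 at chr3:142559974-142560039 on the plus strand and Irgm1 at chr11:48871421-48871475 on the minus strand.
Ifit1: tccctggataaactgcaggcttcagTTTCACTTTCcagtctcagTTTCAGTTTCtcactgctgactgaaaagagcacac
Rsad2: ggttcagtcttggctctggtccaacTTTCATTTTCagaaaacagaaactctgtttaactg
Cxcl10: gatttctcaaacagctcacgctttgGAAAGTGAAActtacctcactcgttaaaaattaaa
Gbp3: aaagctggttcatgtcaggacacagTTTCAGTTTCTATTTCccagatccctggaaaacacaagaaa
Irgm1: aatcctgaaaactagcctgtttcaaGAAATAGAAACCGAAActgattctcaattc

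The same letters were searched in windows of 300 bases, which run from 250 bases before a gene's start to 50 after it. A match was found in 9 of the 9 GTPases and in 13 of the 26 interferon-stimulated genes that had a RefSeq promoter. Of the 10161 tested genes with a promoter 3.82% held it, as did 3.44% of all 32851 windows. It was in 8.34% of the genes called higher and in 2.04% of those called lower. A match describes the letters of the window and not binding in these cells.

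The same genes were measured in the co-cultured macrophages, on a common CPM scale over all 36 libraries. Ifit1 averaged 37.6 CPM in co-cultured macrophages at 24 h and 148 CPM in the tumour cells at 24 h, and Iigp1 2.38 and 17.0 CPM, so both were lower in the macrophages. Rsad2 was the other way round, with 61.9 CPM in macrophages and 13.2 CPM in tumour cells. Library 001, with the least macrophage RNA, had the highest Ifit1, Rsad2 and Iigp1 at 24 h. Number 001 was also the highest of the co-cultured macrophage libraries at 24 h. Ifit1 read 67.5, 23.7 and 21.6 CPM there, Rsad2 123, 31.8 and 31 CPM and Iigp1 3.25, 2.47 and 1.42 CPM. The part of macrophage RNA in these rises was not tested.

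Antigen presentation rose in part. Of 18 MHC class I presentation genes 7 rose and none fell (all genes: 9.21% higher, 9.91% lower). All 18 had values above 0, with a median of 0.41. Without the block 1 passed, and 3 passed without library 001 at 24 h or without library 003 at 6 h. Of the 7 that rose, 4 encode proteasome subunits or activators (Psmb8, Psmb9, Psme1 and Psme2), 1 the peptide transporter subunit Tap2, 1 the trimming peptidase Erap1 and 1 the chaperone Calr. Psmb9, a catalytic subunit, read 1.35, 1.00 and 1.09 CPM at 6 h and 4.89, 3.00 and 3.98 CPM at 24 h (1.76 ± 0.32, adjusted p = 0.0022); it overlaps Tap1 on the opposite strand. Psmb8, another catalytic subunit, read 4.88, 4.87 and 4.60 CPM and 14.1, 7.66 and 10.1 CPM (1.17 ± 0.32, adjusted p = 0.0201), and the activator subunit Psme1 21.7, 21.3 and 16.6 CPM and 48.6, 26.5 and 27.1 CPM (0.74 ± 0.15, adjusted p = 0.00406). The call of Psmb8 was lost when any 1 of these libraries was left out: 001 at 24 h (0.65), 002 at 6 h (1.10), 003 at 6 h (1.08). The heavy chain H2-K1 (0.29 ± 0.24, adjusted p = 0.435) and the light chain B2m (0.08 ± 0.16, adjusted p = 0.778) did not pass, and without library 001 at 24 h their values were below 0.

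Of 22 NF-kB feedback genes and cytokines 1 rose and 5 fell, with a median of 0.02 (all genes: 9.21% higher, 9.91% lower). Without the block none passed, and 1 fell without library 002 at 6 h or without 003 at 24 h. Ptgs2, the inducible cyclooxygenase, read 240.1, 429.8 and 425 CPM at 6 h and 135, 284 and 263 CPM at 24 h (-0.70 ± 0.18, adjusted p = 0.0164), and Tnfaip2 75.4, 154 and 150.0 CPM and 43.5, 68.03 and 73.97 CPM (adjusted p = 0.00053). The call of Ptgs2 was lost when any 1 of these libraries was left out: 001 at 24 h (-0.57), 003 at 24 h (-0.72), 002 at 6 h (-0.66). Tnf also passed (-1.33 ± 0.44, adjusted p = 0.0462), with 0.0642, 6.08 and 3.60 CPM at 6 h and 0.0815, 1.80 and 1.83 CPM at 24 h, but it is over 20 times higher in macrophages and stood near 0 in library 001. The call of Tnf was lost when any 1 of these libraries was left out: 002 at 24 h (-0.83), 003 at 24 h (-1.66), 002 at 6 h (-1.32), 003 at 6 h (-1.36). Of 15 chemokines 2 rose, but none did without the block or without library 001 at either time. Cxcl10, an interferon-induced ligand of CXCR3, read 2.89, 2.29 and 2.51 CPM at 6 h and 54.4, 10.3 and 5.65 CPM at 24 h, a change of 2.77 ± 0.62 (adjusted p = 0.00771). The call of Cxcl10 was lost when any 1 of these libraries was left out: 001 at 24 h (2.23), 001 at 6 h (2.05). Cxcl12, the ligand of CXCR4, changed by 0.31 ± 0.08 (adjusted p = 0.0186). The call of Cxcl12 was lost when any 1 of these libraries was left out: 001 at 24 h (0.23), 001 at 6 h (0.24).

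**Figure D2:**
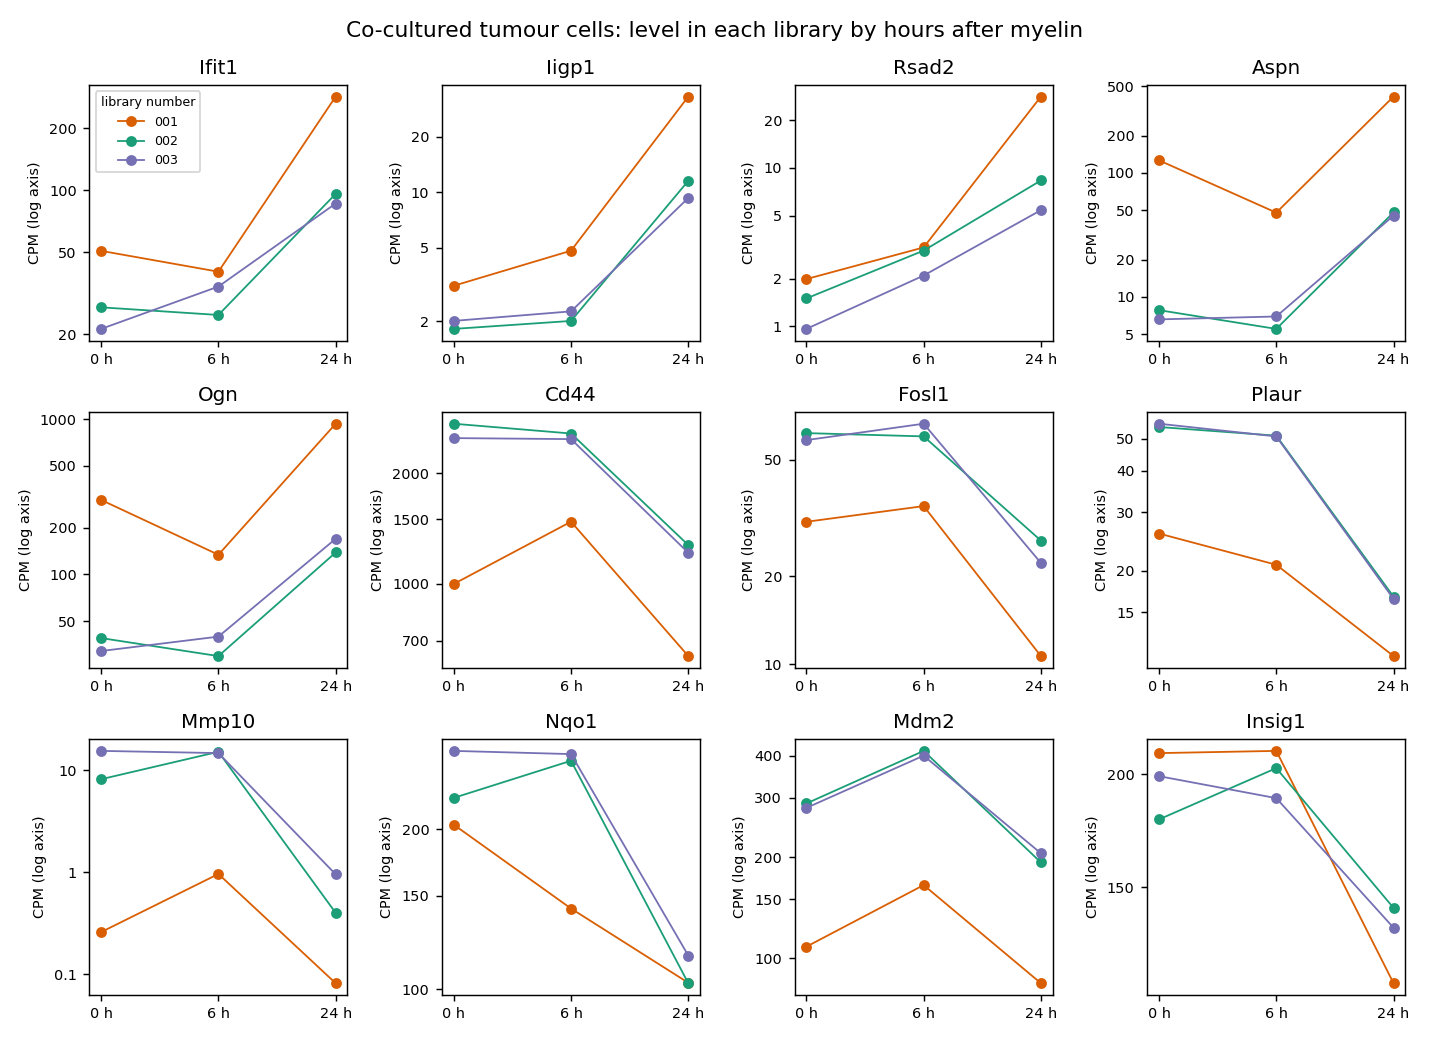
Levels of 12 genes in co-cultured tumour cells as CPM on a log axis, at 0 h, 6 h and 24 h after myelin, with 1 line for each library number. The 24 h values of Ifit1, Iigp1, Rsad2, Aspn and Ogn lie above the 6 h value of the same number, those of the other 7 genes below it, and library 001 often differs in level from 002 and 003.

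By the rule for named genes, the 12 largest were Aspn, Fndc1, Cxcl10, Iigp1, Ogn, Gprin3, Lrrc17, Abca9, Rspo2, Rsad2, Ifit1 and Pknox2. Lrrc17 lost its call without library 003 at 24 h (1.94) or without 001 at 6 h (2.25). Aspn, the small leucine-rich proteoglycan asporin, read 47.8, 5.51 and 6.94 CPM at 6 h and 413, 48.04 and 45.3 CPM at 24 h. Each library rose over its own number, but the groups overlapped because library 001 was already high at 6 h. The change was 3.01 ± 0.30 (adjusted p = 0.000246). Ogn, the related proteoglycan osteoglycin, read 134, 29.8 and 39.8 CPM and 933, 138 and 169.7 CPM (2.38 ± 0.30, adjusted p = 0.000401).

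Aspn and Ogn are neighbours on chromosome 13 of mm10, at chr13:49544443-49567565 and chr13:49608046-49624501. Between them lies Omd (osteomodulin), which rose by 1.40 (adjusted p = 0.00172), and next to Aspn lies Ecm2, which rose by 1.31 (adjusted p = 0.0148); these 2 were picked after their values were seen. The call of Ecm2 was lost when any 1 of these libraries was left out: 001 at 24 h (1.06), 001 at 6 h (1.16). Omd read 68.7, 21.2 and 28.02 CPM at 6 h and 251, 53.6 and 53.05 CPM at 24 h. All 4 genes lie within Cenpp on the opposite strand, which itself read 6.55, 3.00 and 2.59 CPM and 5.46, 5.40 and 3.82 CPM and did not pass (0.43 ± 0.34, adjusted p = 0.408).

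Fndc1, a fibronectin domain protein, read 10.9, 2.58 and 3.01 CPM at 6 h and 135, 12.6 and 15.03 CPM at 24 h (2.94 ± 0.47, adjusted p = 0.00129), and Rspo2, which enhances Wnt signals, 3.73, 3.58 and 2.51 CPM and 31.6, 7.20 and 10.7 CPM (2.13 ± 0.31, adjusted p = 0.000695). Of 45 matrix and protease genes 8 rose and 5 fell, with a median of 0.07; with 1 library left out 6 to 12 rose and 3 to 5 fell. Of 25 collagens 3 rose and 2 fell, with a median of 0.11. These shares are near those of all genes (9.21% higher and 9.91% lower), no collagen rose without library 001 at 24 h, and none fell without 001 at 6 h or without 002 or 003 at 24 h. Adamts5, an aggrecan-cleaving protease, read 42.4, 38.1 and 39.3 CPM and 130.3, 71.5 and 92.98 CPM (1.28 ± 0.19, adjusted p = 0.000965).

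The largest fall of the named genes was in Mmp10, the matrix metalloproteinase stromelysin-2, with 0.963, 15.2 and 14.8 CPM at 6 h and 0.0815, 0.400 and 0.955 CPM at 24 h. Library 001 was near 1 CPM already at 6 h, so the groups stood apart by a narrow margin, while each library fell far below its own number. Its change was -4.51 ± 0.50 (adjusted p = 0.000246). Of the other 11 of the 12 largest falls, 10 were Crct1, Sema7a, Odaph, Fgf2, Nipal1, Acsbg1, Vmn2r79, Tnnt2, Rgs16 and Dusp5. Rgs16 lost its call without library 001 (-1.71) or without 003 (-1.52) at 24 h. Sema7a, a membrane-anchored semaphorin, read 339.9, 479 and 467 CPM and 28.3, 184 and 157 CPM (-2.26 ± 0.38, adjusted p = 0.0018). Crct1 read 41.8, 185 and 222 CPM and 5.62, 50.1 and 48.3 CPM (-2.32 ± 0.22, adjusted p = 0.000246), with overlap because library 001 was low at both times.

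Of 29 genes of the mesenchymal-like glioma state 11 fell, 18 did not pass and none rose, with a median of -0.22, against 9.91% of all genes called lower; 4 passed without the block, 13 in libraries 002 and 003 alone, and 9 to 11 with 1 library left out. Cd44, the hyaluronan receptor, read 1477, 2570.0 and 2481 CPM at 6 h and 635, 1275 and 1215 CPM at 24 h. The groups did not overlap, library 001 was lowest at both times, and the change was -1.09 ± 0.16 (adjusted p = 0.000883). Tnc, the matrix protein tenascin-C, read 1664, 2451 and 2485 CPM and 516, 1466 and 1197 CPM (-1.16 ± 0.19, adjusted p = 0.00133). The protease inhibitor Timp1 read 831, 953 and 1005 CPM and 289, 565 and 564 CPM (-1.09 ± 0.22, adjusted p = 0.00435).

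Plaur, the urokinase receptor, read 20.9, 51.02 and 50.8 CPM at 6 h and 11.1, 16.7 and 16.5 CPM at 24 h (-1.41 ± 0.20, adjusted p = 0.000647). The members that did not pass include Vim, the intermediate filament vimentin (-0.19 ± 0.09, adjusted p = 0.139).

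Of 24 immediate early genes 5 fell and 1 rose, with a median of -0.24 (all genes: 9.91% lower, 9.21% higher). Of 21 MAP kinase feedback genes 6 fell and none rose, with a median of -0.22. Without the block 2 of each fell, and with 1 library left out 3 to 5 and 4 to 6 fell, the fewest without library 001 at 24 h. Fosl1, the AP-1 member FRA1, read 34.7, 59.96 and 66.2 CPM at 6 h and 10.7, 26.4 and 22.2 CPM at 24 h, with no overlap (-1.44 ± 0.24, adjusted p = 0.00159). Its relative Fosl2 was the 1 gene that rose (0.60 ± 0.10, adjusted p = 0.00165).

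Dusp5, a nuclear ERK phosphatase, read 27.9, 50.2 and 57.1 CPM at 6 h and 8.48, 17.3 and 16.9 CPM at 24 h (-1.66 ± 0.22, adjusted p = 0.000488). Etv4, an ETS factor downstream of ERK, read 26.6, 40.4 and 36.2 CPM and 11.5, 18.7 and 14.00 CPM (-1.22 ± 0.17, adjusted p = 0.000513). Dusp4, another of these phosphatases, read 11.4, 26.3 and 27.3 CPM and 3.10, 10.7 and 12.01 CPM (-1.37 ± 0.21, adjusted p = 0.000933).

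Fgf2, a growth factor that signals through this pathway, read 69.5, 48.01 and 48.8 CPM at 6 h and 10.3, 20.2 and 19.5 CPM at 24 h (-1.89 ± 0.33, adjusted p = 0.00216); it overlaps Nudt6 and Fgf2os on the opposite strand, so reads of these cannot be told apart unless strand was counted. Of 15 EGF and PDGF family ligands and receptors 5 fell and 3 rose (all genes: 9.91% lower, 9.21% higher). With 1 library left out 3 to 4 fell and 1 to 2 rose, and without the block 2 fell and none rose. The EGF receptor ligand Ereg read 48.6, 91.5 and 109.9 CPM and 14.6, 35.98 and 40.1 CPM (-1.48 ± 0.23, adjusted p = 0.00101), and Hbegf changed by -1.17 ± 0.18 (adjusted p = 0.0009). Pdgfb read 5.20, 4.65 and 4.93 CPM and 0.652, 3.00 and 2.78 CPM (-1.41 ± 0.40, adjusted p = 0.0232); it is over 20 times higher in macrophages, and the labels do not say if reads of the transgene fall on it. At 6 h library 001, which had the least macrophage RNA, read as high as the others. The call of Pdgfb was lost when any 1 of these libraries was left out: 001 at 24 h (-1.19), 003 at 24 h (-1.49), 001 at 6 h (-0.80). The receptor Pdgfra rose slightly, from 163, 139.8 and 143 CPM to 196, 181 and 176 CPM (0.31 ± 0.09, adjusted p = 0.0242). The call of Pdgfra was lost when any 1 of these libraries was left out: 001 at 24 h (0.26), 002 at 24 h (0.32), 002 at 6 h (0.26), 003 at 6 h (0.28).

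The AP-1 letters TGANTCA were looked for in the same promoter windows, on both strands, and 2 genes that fell are shown, Mmp10 at chr9:7502249-7502315 and Plaur at chr7:24462384-24462450, both on the plus strand, with the match in capitals.
Mmp10: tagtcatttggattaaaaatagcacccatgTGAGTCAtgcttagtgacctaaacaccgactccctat
Plaur: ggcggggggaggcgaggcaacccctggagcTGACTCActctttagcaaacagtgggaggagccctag

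The AP-1 motif was in 5 of the 23 mesenchymal-like genes with a promoter and in 6.43% of the 10161 tested genes with one. It was in 8.06% of the genes called lower and 6.67% of those called higher, so its share was close in both directions. Among the lists that rose it was in 7 of 26 interferon-stimulated genes (26.9%) and in 2 of 9 GTPases (22.2%), while none of 17 MAP kinase feedback genes and none of 18 immediate early genes held it.

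Ribosome biogenesis genes fell together by small steps. Of 34 tested 28 fell and none rose (all genes: 9.91% lower, 9.21% higher). All 34 had values below 0, from -0.69 to -0.02, and the median was -0.47. The median was -0.55, -0.37 and -0.42 in libraries 001, 002 and 003 taken by number. Without the block no member passed, and 18 passed without library 001 at 24 h, the lowest count with 1 library left out. Gnl3, the nucleolar GTPase nucleostemin, read 73.02, 98.2 and 103 CPM at 6 h and 39.3, 69.2 and 64.7 CPM at 24 h, with no overlap (-0.69 ± 0.08, adjusted p = 0.000287). Wdr12, needed for maturation of the large subunit, read 55.4, 68.5 and 74.2 CPM and 26.8, 49.98 and 49.9 CPM (-0.67 ± 0.12, adjusted p = 0.00177). Fbl, the methyltransferase fibrillarin, read 44.7, 55.6 and 57.5 CPM and 30.9, 43.2 and 40.9 CPM (-0.46 ± 0.09, adjusted p = 0.00447). Myc, which drives many of these genes, fell as well (-0.50 ± 0.11, adjusted p = 0.00732).

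NRF2 targets were lower at 24 h mainly in 2 of the 3 library numbers. Of 23 tested 12 fell and 1 rose, with a median of -0.44 (all genes: 9.91% lower, 9.21% higher). Taken by number the median was -0.05 in 001, -0.74 in 002 and -0.53 in 003. Without the block 4 fell, in libraries 002 and 003 alone 17 fell, and without library 002 at either time or library 003 at 24 h 7 fell. Nqo1, a quinone reductase, read 142, 269.5 and 277 CPM at 6 h and 103, 103 and 116 CPM at 24 h. All 3 libraries fell and the groups did not overlap (-1.08 ± 0.17, adjusted p = 0.00137). Srxn1, which reduces peroxiredoxins, read 102, 156 and 157 CPM and 64.8, 76.9 and 72.1 CPM (-0.94 ± 0.14, adjusted p = 0.000688). Gclc, the catalytic subunit of glutathione synthesis, read 47.9, 78.6 and 80.5 CPM and 38.7, 37.7 and 35.95 CPM (-0.87 ± 0.19, adjusted p = 0.00661).

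For Nqo1, Srxn1 and Gclc library 001 was the lowest at 6 h. Gclm, the modifier subunit, went up in library 001 and down in the other 2, with 47.1, 75.8 and 77.7 CPM at 6 h and 55.8, 47.7 and 45.02 CPM at 24 h, and did not pass (-0.44 ± 0.20, adjusted p = 0.142), but it did without library 001 at 6 h (-0.70). Hmox1, haem oxygenase, went the same ways, with 152, 272 and 287 CPM and 171, 182 and 189 CPM (-0.32 ± 0.23, adjusted p = 0.372). In the edgeR fit of libraries 002 and 003 alone Hmox1 did pass (-0.58, adjusted p = 1.56e-05). The 1 member that rose was Gstm1, a glutathione transferase, with 50.1, 41.4 and 44.9 CPM and 153, 52.6 and 53.7 CPM (0.70 ± 0.23, adjusted p = 0.0449), and most of that rise was in library 001. The call of Gstm1 was lost when any 1 of these libraries was left out: 001 at 24 h (0.60), 002 at 24 h (0.75), 003 at 24 h (0.75), 001 at 6 h (0.33).

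Amino acid and integrated stress response genes split in the same way. Of 31 tested 9 fell and none rose (all genes: 9.91% lower, 9.21% higher). The median by number was 0.22 in library 001, -0.25 in 002 and -0.23 in 003. Only 1 passed without library 002 or without library 003 at 24 h. Without the block 1 fell and none rose. With only the groups compared in the fit 2 fell and 3 rose, and in libraries 002 and 003 alone 16 fell and 4 rose. Slc7a11, the cystine importer and also an NRF2 target, read 61.1, 85.2 and 75.2 CPM at 6 h and 55.8, 36.9 and 36.2 CPM at 24 h (-0.81 ± 0.20, adjusted p = 0.0126). The call of Slc7a11 was lost when any 1 of these libraries was left out: 002 at 24 h (-0.72), 003 at 24 h (-0.72), 002 at 6 h (-0.64). Slc1a5, a glutamine carrier, read 31.5, 38.2 and 38.05 CPM and 32.5, 23.5 and 22.2 CPM (-0.49 ± 0.16, adjusted p = 0.0419), with no fall in library 001. The call of Slc1a5 was lost when any 1 of these libraries was left out: 001 at 24 h (-0.57), 002 at 24 h (-0.50), 003 at 24 h (-0.39), 002 at 6 h (-0.34), 003 at 6 h (-0.41).

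Of 26 p53 targets 11 fell and 3 rose, with a median of -0.40 (all genes: 9.91% lower, 9.21% higher). None of the falls passed without the block, and 7 fell without library 002 at 6 h. Mdm2, the ubiquitin ligase that limits p53, read 165, 413 and 399.7 CPM at 6 h and 84.5, 193 and 205 CPM at 24 h. Every library fell by a like ratio, and the groups overlapped because library 001 was low (-1.01 ± 0.13, adjusted p = 0.000469). The cell cycle inhibitor Cdkn1a read 218, 428 and 427 CPM and 151, 320.3 and 327 CPM (-0.44 ± 0.10, adjusted p = 0.00782). The death receptor Fas went the other way, with 6.62, 7.08 and 5.10 CPM and 15.8, 10.5 and 11.4 CPM (0.99 ± 0.20, adjusted p = 0.00416), as did Sesn1 (0.83 ± 0.10, adjusted p = 0.000324).

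Of 21 cholesterol synthesis enzymes 5 fell, none rose and 16 did not pass, with a median of -0.16 (all genes: 9.91% lower, 9.21% higher). Without the block none passed, and 1 passed without library 001 at 24 h. Hmgcs1, an early synthase of the pathway, read 565, 509 and 455 CPM at 6 h and 415, 400.3 and 365 CPM at 24 h (-0.37 ± 0.09, adjusted p = 0.00892). The call of Hmgcs1 was lost without library 001 at 24 h (-0.28). Of 14 SREBP and sterol uptake genes 2 fell and 1 rose. Insig1, an SREBP-induced brake on SREBP, read 212, 203 and 188 CPM and 118, 142 and 135 CPM (-0.60 ± 0.09, adjusted p = 0.000883), and it also passed without the block. Insig2 rose (0.49 ± 0.09, adjusted p = 0.00234), and the desaturase Scd2 did not pass (0.16 ± 0.10, adjusted p = 0.282).

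Of 12 LXR targets and sterol exporters 4 rose and none fell (all genes: 9.21% higher, 9.91% lower). But 4 of the 12 are over 20 times higher in macrophages. Without the block 1 rose, and 2 rose without library 002 at 6 h, without 003 at 24 h and in 002 and 003 alone. Among the risers that is so for Apoe, with 1.48, 27.1 and 27.4 CPM at 6 h and 1.79, 54.6 and 62.4 CPM at 24 h (1.01 ± 0.28, adjusted p = 0.0225), and for Abcg1, with 0.193, 5.37 and 8.45 CPM and 0.652, 15.3 and 16.7 CPM (1.26 ± 0.37, adjusted p = 0.0292). Both stood near 0 in library 001, which had the least macrophage RNA, and co-cultured macrophages averaged 1120 and 439 CPM of them at 24 h. The part of macrophage RNA in their rise was not tested. The call of Apoe was lost when any 1 of these libraries was left out: 002 at 24 h (1.07), 003 at 24 h (0.82), 002 at 6 h (0.93), 003 at 6 h (1.02). The call of Abcg1 was lost when any 1 of these libraries was left out: 001 at 24 h (1.22), 002 at 24 h (1.37), 003 at 24 h (1.25), 002 at 6 h (0.94). Mylip, an LXR-induced ubiquitin ligase, is not such a gene and read 12.3, 8.66 and 9.70 CPM and 19.8, 17.99 and 19.6 CPM (0.90 ± 0.17, adjusted p = 0.00285). Abca9, a transporter of the same family as the sterol exporter, read 12.8, 3.58 and 3.68 CPM and 59.3, 13.9 and 16.5 CPM (2.14 ± 0.24, adjusted p = 0.000251). Abca1, the main cholesterol exporter, did not pass, with 75.1, 78.9 and 99.6 CPM and 107, 98.3 and 118 CPM (0.36 ± 0.13, adjusted p = 0.0756).

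Of 18 fatty acid oxidation genes 8 rose, none fell and 10 did not pass, with a median of 0.24 (all genes: 9.21% higher, 9.91% lower). None passed without the block, and 2 passed without library 001 at 24 h, without 003 at 6 h or without 003 at 24 h. Cpt1a, which brings fatty acids into mitochondria, read 103, 87.4 and 87.3 CPM at 6 h and 174, 123 and 142 CPM at 24 h (0.65 ± 0.13, adjusted p = 0.00406), and Cpt2 27.2, 18.8 and 22.8 CPM and 45.4, 30.7 and 31.02 CPM (0.63 ± 0.12, adjusted p = 0.00316). Mgll, the lipase that splits monoglycerides, read 131, 79.2 and 75.8 CPM and 29.8, 49.7 and 53.5 CPM (-1.22 ± 0.32, adjusted p = 0.0177). The call of Mgll was lost when any 1 of these libraries was left out: 001 at 24 h (-1.10), 002 at 24 h (-1.24), 001 at 6 h (-0.58).

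Of 26 BMP and TGF-beta genes 6 rose and 4 fell (all genes: 9.21% higher, 9.91% lower). With 1 library left out 3 to 6 rose, the fewest without library 001 at 24 h, and 2 to 6 fell. Without the block none rose and 1 fell. The ligand Bmp4 read 2.83, 1.57 and 2.34 CPM at 6 h and 11.98, 4.46 and 4.53 CPM at 24 h (1.55 ± 0.34, adjusted p = 0.00647), and the target Id3 36.8, 11.9 and 14.8 CPM and 106, 41.5 and 46.05 CPM, with no overlap (1.63 ± 0.25, adjusted p = 0.00112). The antagonist Chrdl1 rose (1.92 ± 0.42, adjusted p = 0.00605). The call of Chrdl1 was lost when any 1 of these libraries was left out: 001 at 24 h (1.27), 001 at 6 h (1.39).

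Of 18 glial progenitor factors 6 rose and 1 fell, with a median of 0.20 (all genes: 9.21% higher, 9.91% lower). Without the block 1 of the 6 passed, and 3 rose without library 001 or without 002 at 24 h. Sox11 read 2.38, 2.79 and 2.51 CPM at 6 h and 10.7, 3.67 and 3.50 CPM at 24 h (1.01 ± 0.31, adjusted p = 0.0334), and the glutamate transporter Slc1a3 0.771, 0.501 and 0.251 CPM and 10.1, 0.866 and 0.955 CPM (2.65 ± 0.54, adjusted p = 0.00411). In both most of the rise was in library 001, and neither passed in libraries 002 and 003 alone. The call of Sox11 was lost when any 1 of these libraries was left out: 001 at 24 h (0.89), 002 at 24 h (1.03), 003 at 24 h (1.10), 001 at 6 h (0.45). The call of Slc1a3 was lost without library 001 at 6 h (1.10). Cspg4, the NG2 proteoglycan, fell from 713, 813 and 762 CPM to 398, 492 and 569 CPM (-0.68 ± 0.13, adjusted p = 0.00301).

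In the remaining lists few genes passed, and many of these calls rest on single libraries. Over all genes 9.21% were called higher and 9.91% lower, and many of the shares in these lists were near or below that. Of 21 endoplasmic reticulum chaperones 4 rose, led by Creld2 (0.68 ± 0.10, adjusted p = 0.00053). With 1 library left out 1 to 9 chaperones rose, 1 without library 001 at 24 h or without 003 at 6 h and 9 without 001 at 6 h. Of 20 heat shock genes 2 rose and 4 fell. None of these rose without library 002 at 24 h or without 003 at either time, and none fell without 001 at 24 h. Of 34 glycolysis and hypoxia genes 4 fell and Vegfa, the vascular growth factor, did not pass (-0.45 ± 0.16, adjusted p = 0.0653), although it did without library 001 at 24 h (-0.61). Of 38 respiratory chain subunits 3 rose, of 34 lysosomal genes 1 rose and 2 fell, and of 18 clock genes 2 rose and 1 fell. No respiratory chain subunit passed without library 003 at 24 h, and no clock gene without library 001 or 002 at 24 h or 003 at 6 h. No heat shock, chaperone, glycolysis, respiratory chain, lysosomal, clock or iron gene passed without the block. Of 11 iron genes 3 fell, among them the transferrin receptor Tfrc (-0.65 ± 0.13, adjusted p = 0.00326). Of 20 IL-6 family genes 2 rose and 2 fell, and Osmr, the oncostatin M receptor, did not pass (0.16 ± 0.12, adjusted p = 0.391). Of 5 myelin genes tested 1 rose, Cnp, which the tumour cells express themselves (0.55 ± 0.12, adjusted p = 0.00543).

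**Figure D3:**
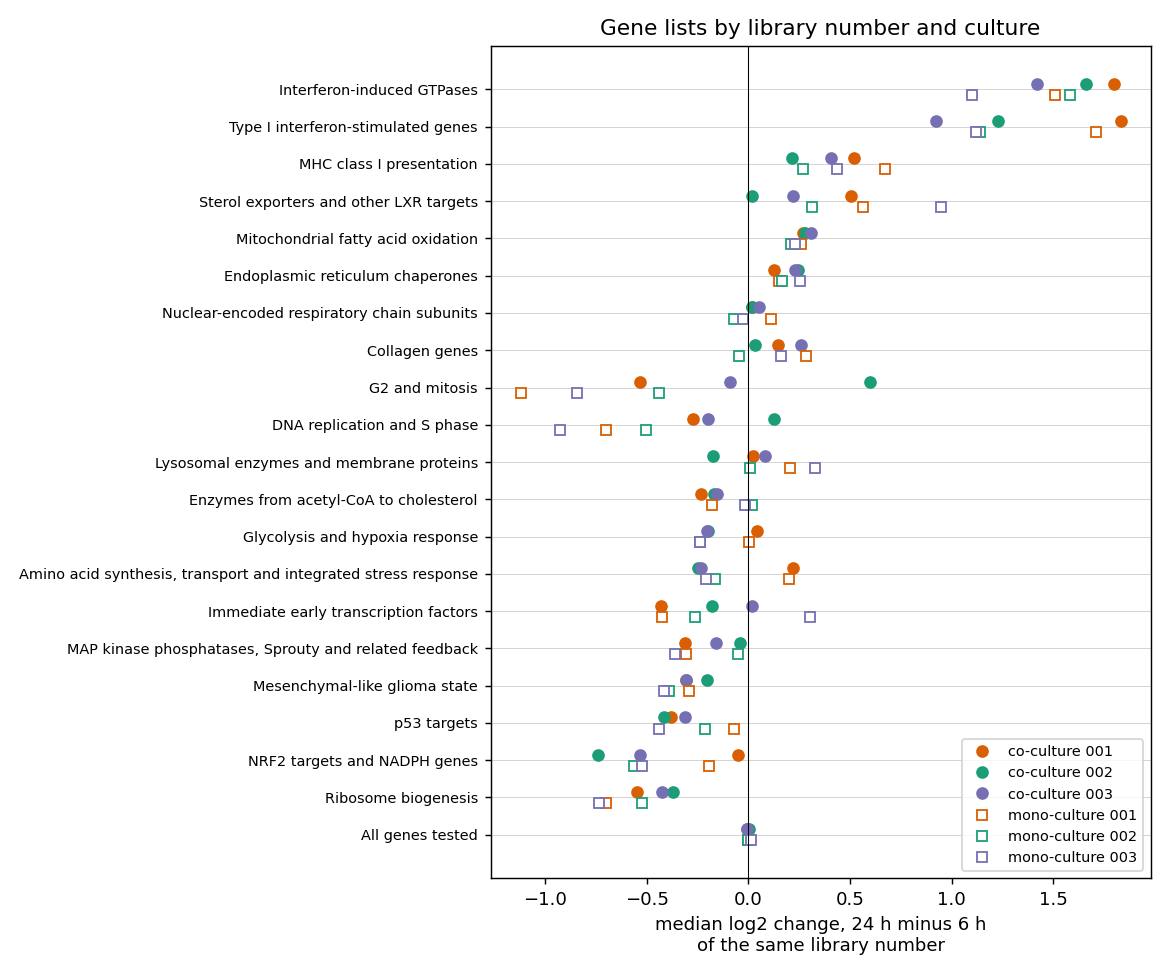
Median log2 change of 24 h minus 6 h over each gene list, taken within each library number, with filled circles for co-culture and open squares for mono-culture and 1 colour for each number. The interferon lists are above 1 in all but 1 co-culture point and the ribosome biogenesis list is below 0 in all 6 pairs, while the NRF2, amino acid and cell cycle lists spread between numbers.

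Proliferation genes did not move as a group in the co-culture. Of 39 DNA replication and S phase genes and 40 G2 and mitosis genes none passed the edgeR test in either direction, with medians of -0.08 and 0.04. DESeq2 also called none, and in libraries 002 and 003 alone edgeR called 3 S phase genes higher and 3 lower and 5 mitosis genes higher. The library numbers disagreed: the median of the mitosis list was -0.53 in 001, 0.60 in 002 and -0.09 in 003. Mki67, the proliferation antigen, read 176, 127 and 156 CPM at 6 h and 131, 217 and 154 CPM at 24 h, falling in library 001 and rising in 002 (0.19 ± 0.33, adjusted p = 0.73). Top2a, the mitotic topoisomerase, read 192, 181 and 210.1 CPM and 172, 242 and 203 CPM (0.10 ± 0.27, adjusted p = 0.836). Ccnd1, the cyclin that starts the cycle, read 823, 793 and 835 CPM and 719.8, 822 and 869.9 CPM (-0.03 ± 0.09, adjusted p = 0.862). The inhibitor Cdkn1b rose, from 43.7, 34.1 and 30.8 CPM to 70.2, 47.8 and 48.1 CPM (0.60 ± 0.08, adjusted p = 0.000399).

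The same interval was measured in tumour cells kept alone, in 6 libraries of their own. There 3819 of 13603 genes passed (28.1%), 1733 higher (12.7%) and 2086 lower (15.3%). Of the 2601 genes called in co-culture 2546, or 97.9%, had the same direction in mono-culture, against 76.2% of all genes, and 1900, or 73.0%, were also called there in that direction, with 1 called in the other. These 1900 are 49.8% of the mono-culture calls. Ifit1 changed by 1.78 in mono-culture (adjusted p = 0.00041), Aspn by 2.71 (adjusted p = 6.51e-05), Mmp10 by -5.12 (adjusted p = 9.07e-05) and Cd44 by -1.15 (adjusted p = 0.000324). By list, 12 of 13 interferon-induced GTPases, 33 of 37 interferon-stimulated genes and 33 of 34 ribosome biogenesis genes were called in mono-culture in the same direction as in co-culture. Macrophage RNA was also found in the mono-culture libraries, at up to 1.96%, so they are not free of RNA of the other cell type. Its source was not tested.

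The test of the difference between the cultures called no gene with edgeR. At an unadjusted p under 0.05 there were 965, the smallest adjusted p was 0.459, DESeq2 called 15 (12 higher and 3 lower in co-culture), and edgeR on libraries 002 and 003 alone called 265 (202 and 63). Among the lists of at least 4 genes, the widest gaps in the median were those of the 2 cell cycle lists (0.57 and 0.86) and of the macrophage markers (-0.64), none of whose 24 members had an unadjusted p under 0.05. In mono-culture 27 of 39 S phase genes and 17 of 40 mitosis genes fell, with medians of -0.74 and -0.82, and in every library number the co-culture median was above the mono-culture one. For S phase the medians were -0.27, 0.13 and -0.20 in co-culture and -0.70, -0.51 and -0.93 in mono-culture. For the difference itself 22 S phase and 18 mitosis genes had an unadjusted p under 0.05 and none an adjusted one; in libraries 002 and 003 alone 12 and 10 passed, all higher in co-culture. Mcm2, a helicase subunit, changed by -0.09 ± 0.15 in co-culture (adjusted p = 0.716) and by -0.79 in mono-culture (adjusted p = 0.00261), a difference of 0.69 (adjusted p = 0.672).

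**Figure D4:**
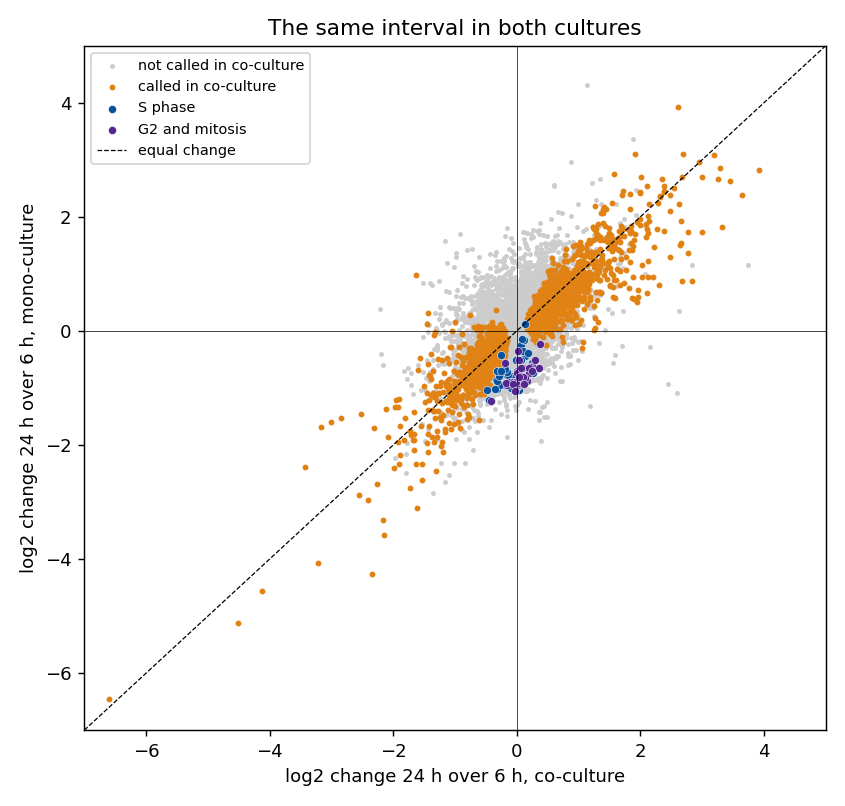
Log2 change of 24 h over 6 h in co-culture (horizontal) and mono-culture (vertical) for the 13603 genes tested, with the 2601 genes called in co-culture in orange, the cell cycle lists in blue and violet, and a dashed line of equal change. Most orange points lie near the line, and the cell cycle genes lie near 0 in co-culture and below 0 in mono-culture.

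The 0 h co-culture libraries place these values in time. The comparisons with 0 h share the 6 h or the 24 h libraries with the one above, so their values are given only side by side. At 6 h against 0 h 28 of 13603 genes passed (0.206%), 11 higher (0.0809%) and 17 lower (0.125%), and at 24 h against 0 h 1263 passed (9.28%), 579 higher (4.26%) and 684 lower (5.03%). Of the interferon-stimulated genes none passed at 6 h against 0 h and 31 of 37 rose at 24 h against 0 h, with medians of 0.10 and 1.44. Of the ribosome biogenesis genes none passed and 22 of 34 fell, with medians of 0.07 and -0.39. Mdm2 read 108, 288 and 279.7 CPM at 0 h, below its 6 h level in every number, and Aspn read 126, 7.81 and 6.58 CPM at 0 h, above its 6 h level in libraries 001 and 002.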

How the data were processed

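Each library had been made from oligo-dT primed, template-switched RNA of sorted cells, and the authors deposited 1 table of whole read counts per gene for all 36 libraries, with the build mm10 per the submitters' processing notes and the aligner, counter and strand setting not given in the sources used here. All 29883 genes of the table were read and 13603 were tested after edgeR's filterByExpr on the 18 tumour cell libraries. TMM factors and quasi-likelihood fits with robust dispersions came from edgeR 4.0.16 in R 4.3.3, with group and library number as terms, and the SE is the log2 change divided by the square root of F. Genes with a Benjamini-Hochberg adjusted p under 0.05 over all genes tested were called, and the scripts were tested on simulated data. Deviations from the group means correlated at 0.693, 0.495 and 0.552 between same-numbered libraries (001, 002 and 003) at 6 h and 24 h. Library 002 at 6 h correlated more with 003 at 24 h (0.545) than with its own number. Library 002 at 24 h likewise correlated more with 003 at 6 h (0.512). The numbers therefore separate 001 from the rest but do not separate 002 from 003.

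Genes were named by a rule: the 12 largest changes in each direction with a mean of at least 10 CPM and the same direction in all 3 numbers, the 3 largest called changes of every list in which 3 or more genes passed, and 12 genes listed by name. That gave 120 genes, and 27 more were named outside the rule, after their values were seen. The members and the gene lists were chosen with earlier results of these data known. Of 932 listed genes, 925 were found; the others were not analysed here. Promoters were matched by symbol to RefSeq, GRCm38.p6. Alternatives were a fit without the block, other size factors, no count filter, non-robust dispersions, no genes over 20 times higher in macrophages, only the groups compared, DESeq2 1.42.0, and each library left out. Libraries 002 and 003 alone were an alternative chosen after seeing the data. Some genes are not reported here.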

Additional observations from a re-analysis of the deposited data

How the results depend on the processing

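Without the replicate block 209 genes were called between 24 h and 6 h in co-culture, 1642 in mono-culture, 2 at 6 h against 0 h and 107 at 24 h against 0 h, since the spread between library numbers then stays in the error. Of the 120 genes named by the rule 113 had passed, and 93 of these lost their call. None of the 120 changed direction. With only the groups compared in the fit the counts were 1245 in co-culture, 1 at 6 h against 0 h and 2305 at 24 h against 0 h. DESeq2 called 15 genes for the difference between cultures and 158 at 6 h against 0 h. Libraries 002 and 003 alone gave 265 for the difference, 458 at 6 h against 0 h and 3143 at 24 h against 0 h.

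With 1 library left out the counts ran from 1483 to 2412 in co-culture, 2084 to 3573 in mono-culture, 0 to 1 for the difference, 0 to 18 at 6 h against 0 h and 217 to 1640 at 24 h against 0 h. The fixed macrophage marker list put macrophage RNA at 3.37% at 6 h and 3.15% at 24 h, above the 0.986% and 0.955% from 50 markers, and 20 markers put it at 0.554% and 0.355%.

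Changes of sign occurred only in named genes that had not passed. In libraries 002 and 003 alone Osmr was -0.0702 and Ccnd1 0.0641. With 1 library left out Osmr ran from -0.0355 to 0.295, Ccnd1 from -0.0817 to 0.0388 (0.0113 without 001 at 24 h) and Mki67 from -0.195 to 0.554. For the others the ranges were -0.0552 to 0.432 for H2-K1, -0.0887 to 0.233 for B2m, -0.144 to 0.392 for Top2a (-0.0842 without 001 at 6 h), -0.214 to 0.0259 for Mcm2 and -0.0507 to 0.221 for Trim25.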
